A study of Mus musculus with 34 samples.

Results

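Transcript levels of 34 genes of fat cells and of fat synthesis were examined in skeletal muscle of 4 knockout genotypes and their floxed controls. The genes were taken by name as adipocyte markers and lipogenesis genes. They were chosen with earlier results of these data known. All 34 were found among the 46071 genes of the count table. All 34 also passed the filter on low counts, which left 13646 genes for testing. Powders of quadriceps with gastrocnemius from male mice were the source of RNA, and the mice's mixed background held C57Blk6, C57Blk6J and 129 strains. Sequencing gave 34 libraries, each from a different sample. The mice's age is not given in the sources used here.

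In MIRKO (n = 4) the insulin receptor gene Insr was deleted in skeletal muscle, in MIGF1RKO (n = 5) Igf1r, the gene of the IGF-1 receptor, and in MIGIRKO (n = 6) both. QKO mice (n = 7) lacked both receptors and the transcription factors FoxO1, FoxO3 and FoxO4. Floxed littermates served as controls: 3 IRlox samples for MIRKO, 4 IGFRlox samples for MIGF1RKO, 3 IRIGFRlox samples for MIGIRKO and 2 Qlox samples for QKO. In MIRKO, MIGIRKO and QKO the floxed alleles were deleted with Acta1-Cre, which is driven by the skeletal actin promoter and acts in muscle fibers, so that fat cells, nerves, vessels and immune cells of the tissue keep these genes. The Cre of MIGF1RKO is not given in the sources used here. Each line was a separate colony, so colony and genotype differ together between lines, and only the floxed littermates of a line share its colony. The mitochondrial gene Nnt, which C57Blk6J carries in a mutated form, was heterozygous in MIGIRKO and IRIGFRlox mice and of mixed genotype in MIRKO, IRlox, QKO and Qlox mice. The labels number the samples of a group and do not say which mouse each came from, so p-values measure the spread between these libraries.

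Fat cells lie between the fibers of skeletal muscle and around its fascicles. They store triglyceride in a large droplet coated with perilipin 1, and they secrete hormones such as adiponectin and leptin. PPARgamma and C/EBPalpha are the transcription factors that establish the fat cell program. In lipogenesis, citrate is turned into acetyl-CoA and malonyl-CoA, fatty acid synthase joins these to palmitate with NADPH, and elongases and desaturases modify the product. Acyltransferases, a phosphatase and diacylglycerol acyltransferases then assemble triglyceride on glycerol phosphate, and lipases release the fatty acids again. Insulin acting on fat cells promotes lipogenesis and restrains lipolysis. Muscle fibers use several of the same enzymes at lower levels, and FoxO factors, which insulin signalling keeps out of the nucleus, act on genes of fuel use in both cell types.

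Total counts were 1499025 to 7581198 per library. Levels are given as CPM, read counts brought to a common library size with trimmed mean of M values factors. Insr was lower in every library of MIRKO, MIGIRKO and QKO than in any of their controls. Igf1r fell in QKO (log2 change -1.09, adjusted p = 0.027), ran lower in MIGF1RKO without passing the test (7.57 to 11.2 CPM against 13.5 to 20.4, adjusted p = 0.1) and showed no deletion in the counts of MIGIRKO (0.00, adjusted p = 0.99). Foxo3 did not pass the test in QKO (0.29, adjusted p = 0.71), while Foxo1 and Foxo4 fell there. Foxo4 was also called lower in MIGIRKO (-0.73, adjusted p = 0.001), where it was not deleted. Its level there was 77.1 to 142 CPM, against 138 to 213 in IRIGFRlox. Foxo1 (-0.40, adjusted p = 0.37) and Foxo3 (0.41, adjusted p = 0.17) were not called in MIGIRKO. When libraries were correlated over all tested genes, the best match of 14 of the 34 carried another label, among them all 4 MIRKO libraries. The gap to the closest library of the same label was widest for 3 of these. The best match of the library labelled MIRKO 4 was MIGIRKO 3 (r = 0.98 against 0.95 with its closest library of the same label), that of the library labelled MIGIRKO 6 was MIRKO 3 (0.97 against 0.95), and that of QKO 6 was the library labelled MIGIRKO 6 (0.96 against 0.95). Genes are not independent replicates in these correlations.

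The adipocyte-defining members used as markers, Adipoq, Plin1, Cidec, Cfd, Retn, Lep and Pparg, were detected in the floxed groups, and Retn alone had a library without a count, QKO 5. Their levels ran over different ranges in the 4 floxed groups. Adipoq, the fat cell hormone adiponectin (chr16:23146536-23158028, GRCm38), was at 22.1, 30.3 and 25.1 CPM in IRlox, 15.9, 8.56, 20.7 and 11.4 in IGFRlox, 8.85, 8.42 and 8.13 in IRIGFRlox and 13.1 and 14.0 in Qlox. All IRlox libraries lay above every other floxed library, and the IRIGFRlox libraries lay among the lowest. The summed level of the 7 markers ran from 207 to 286 CPM in IRlox, 78.1 to 135 in IGFRlox, 69.1 to 73.3 in IRIGFRlox and 90.6 to 132 in Qlox. Cfd was the highest of the 7 in every floxed library, so it weighs most in these sums. In bulk muscle, more fat cells and more RNA per fat cell cannot be told apart.

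Testing the floxed groups against each other (edgeR quasi-likelihood F test, Benjamini-Hochberg adjustment over all tested genes) called 0 of the 34 members at an adjusted p under 0.05, and it called 0.264% of all tested genes. At an unadjusted p under 0.05 there were 17 members, among them all 7 secreted and surface members. The share of all tested genes at that unadjusted threshold is not given here, so this count has no background beside it. Called members numbered 1 with the DESeq2 test, Acvr1c (adjusted p = 0.03), against 1.19% of all tested genes. With the floxed groups fitted alone there were 5, against 0.968% of all genes tested there, namely Adipoq (adjusted p = 0.016), Cfd (0.026), Cidec (0.025), Plin1 (0.043) and Acvr1c (0.049). Each knockout was compared with the floxed littermates of its own colony, which are its stated controls. Where the call or size depends on the controls, the comparison with all 12 floxed libraries is also given.

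Per kilobase of exon, the members spanned a wide range in floxed muscle. Car3, a carbonic anhydrase of slow fibers and of fat cells, was the highest at 777 CPM per kilobase, averaged over the 12 floxed libraries. Lpin1, the phosphatidate phosphatase that also acts in muscle fibers, followed at 91.4, then Scd1 at 90.9, Cfd at 78.3, Plin4 at 75.1 and Me1 at 72.2. Adipoq stood at 11.3 on that scale, and the lowest member was Acvr1c at 0.383.

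Promoter windows from RefSeq (GRCm38.p6), the 250 bases before an annotated start, were available for 25 of the 34 members, and 9 had no entry used here (Adrb3, Aoc3, Cidea, Scd1, Scd2, Dgat1, Dgat2, Fabp4 and Car3). The windows shown belong to the hormone Adipoq, the cytochrome P450 Cyp2e1 and the synthesis genes Fasn and Elovl6, which rose in MIGIRKO, and to Lpin1, which fell. They read 5′ to 3′ on the gene's strand, and capitals mark exact matches on either strand to any of AGGTCA (bound by nuclear receptors such as PPARgamma with RXR), GTAAACA (bound by FoxO and other forkhead factors), CACGTG (an E-box), TATAAA and CCAAT. The windows are chr16:23146286-23146535 on the plus strand for Adipoq, chr7:140763569-140763818 on the plus strand for Cyp2e1, chr11:120824548-120824797 on the minus strand for Fasn, chr3:129532136-129532385 on the plus strand for Elovl6 and chr12:16610967-16611216 on the minus strand for Lpin1.
Adipoq: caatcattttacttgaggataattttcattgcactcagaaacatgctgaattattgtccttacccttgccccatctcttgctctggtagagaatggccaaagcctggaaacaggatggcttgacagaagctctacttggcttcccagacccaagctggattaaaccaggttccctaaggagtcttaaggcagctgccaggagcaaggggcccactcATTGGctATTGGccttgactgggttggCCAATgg
Cyp2e1: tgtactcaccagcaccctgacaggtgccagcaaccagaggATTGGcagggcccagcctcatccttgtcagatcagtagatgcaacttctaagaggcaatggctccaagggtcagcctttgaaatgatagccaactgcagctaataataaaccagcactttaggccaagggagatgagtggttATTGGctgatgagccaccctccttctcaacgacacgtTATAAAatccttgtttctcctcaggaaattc
Fasn: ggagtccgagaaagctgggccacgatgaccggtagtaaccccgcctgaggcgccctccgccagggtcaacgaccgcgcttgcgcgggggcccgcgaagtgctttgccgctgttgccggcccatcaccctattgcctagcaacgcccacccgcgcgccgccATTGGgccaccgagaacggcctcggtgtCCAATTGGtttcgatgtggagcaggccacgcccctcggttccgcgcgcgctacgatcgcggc
Elovl6: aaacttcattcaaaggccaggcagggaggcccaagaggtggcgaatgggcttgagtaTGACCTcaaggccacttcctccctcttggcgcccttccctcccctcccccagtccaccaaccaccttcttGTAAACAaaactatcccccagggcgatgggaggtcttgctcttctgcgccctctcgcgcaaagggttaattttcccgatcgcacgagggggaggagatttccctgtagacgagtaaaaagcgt
Lpin1: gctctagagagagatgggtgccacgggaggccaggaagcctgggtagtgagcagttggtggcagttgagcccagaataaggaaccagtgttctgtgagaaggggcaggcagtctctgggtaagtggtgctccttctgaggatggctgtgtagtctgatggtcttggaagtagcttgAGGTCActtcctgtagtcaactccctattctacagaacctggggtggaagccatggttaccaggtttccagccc

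AGGTCA was present in 7 of the 25 members (28%, against 15.8% of all 27025 genes with a window): Acly, Aqp7, Elovl6, Gpam, Lpin1, Pparg and Ucp1. GTAAACA was present in Elovl6, Lipe and Mgll (12% of members, 3.54% of all genes), and CACGTG in Lipe and Mgll (8% and 6.86%). TATAAA was found in Cebpa, Cyp2e1 and Pparg (12% and 14.3%). CCAAT was found in 8 members, among them Adipoq, Cyp2e1, Fasn and Me1 (32% and 37.5%). These are matches of letters in short windows, and no binding was measured here.

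The number of members that passed the test against their own controls was not the same in the 4 knockouts. Changes and differences of changes are on the log2 scale throughout, with the standard error (SE) after ±. In MIGIRKO 28 members rose and 2 fell, with a median log2 change of 1.59 over the 34 members and 0.04 over all tested genes. The background was high in that comparison, since 17% of all tested genes were called higher and 16.7% lower. In MIRKO 0 members were called (0.381% of genes called higher, 0.865% lower), with 2 at an unadjusted p under 0.05 and 0 by DESeq2. In MIGF1RKO 1 member, Scd2, was called higher (0.264% of genes called higher, 0.352% lower). In QKO 0 members were called (0.0513% of genes called higher, 0.454% lower), with 6 at an unadjusted p under 0.05 and 0 by DESeq2. The median change of the members was 0.23 in MIRKO, -0.02 in MIGF1RKO and -0.18 in QKO. Counts at the unadjusted threshold stand without the share of all tested genes there, so they have no background beside them.

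**Figure D1:**
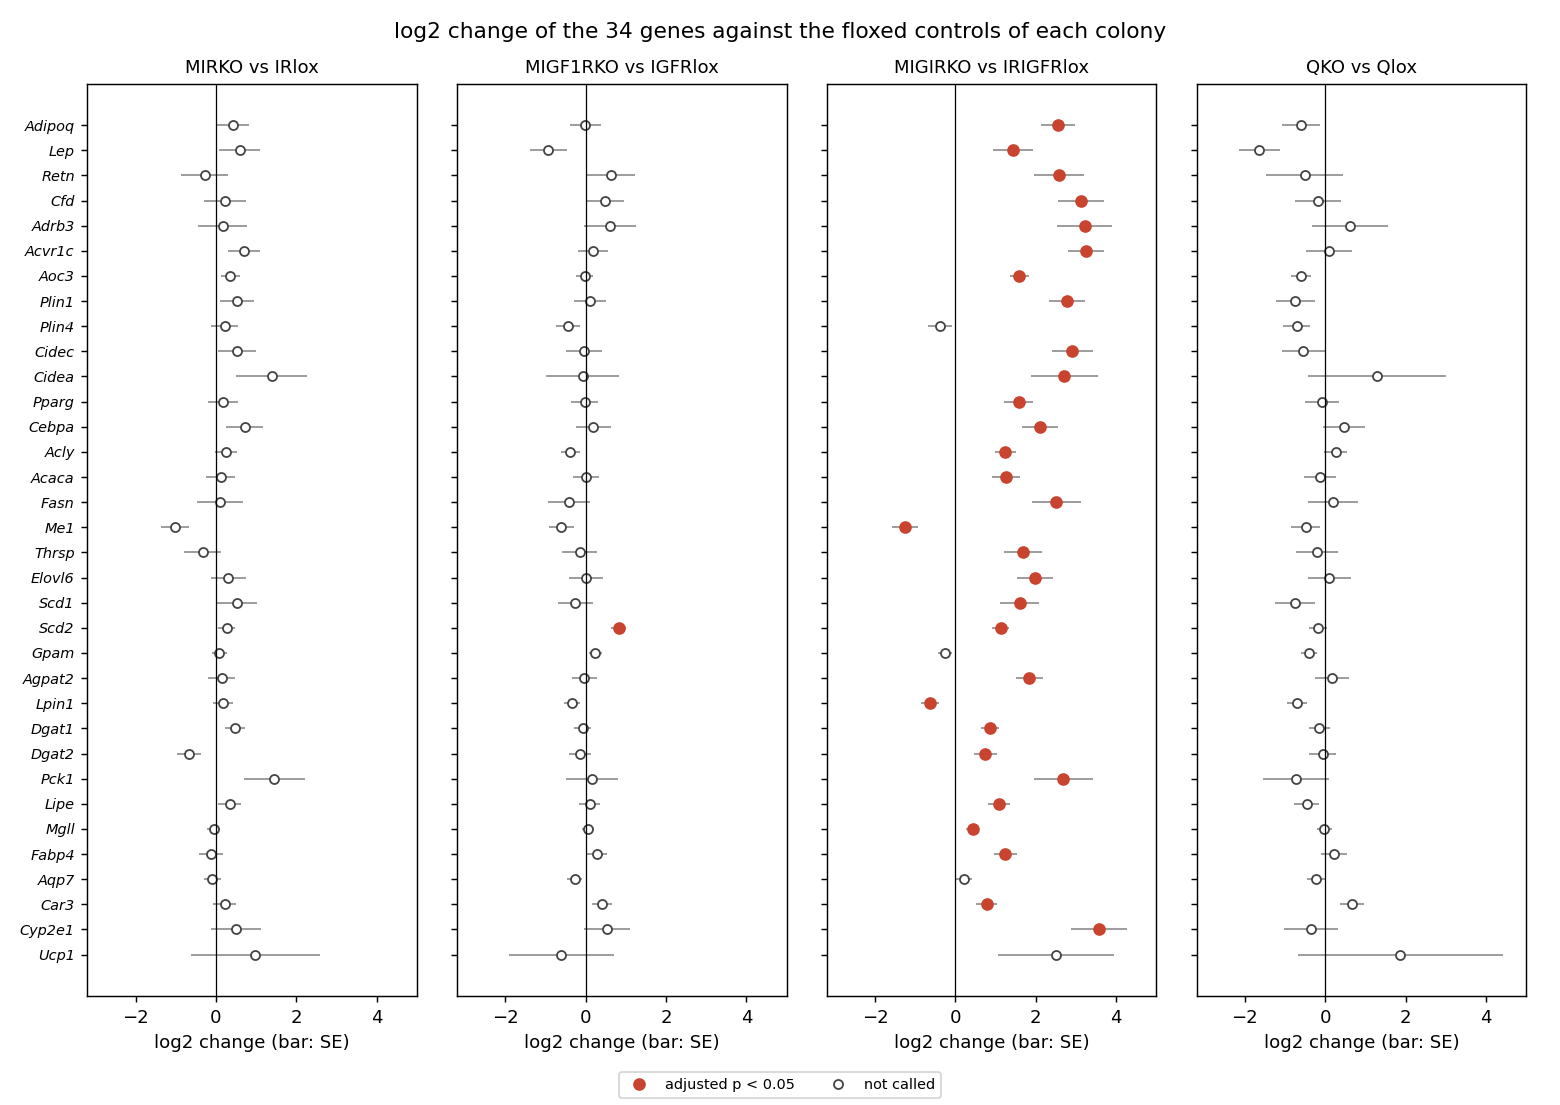
Log2 change of each of the 34 members against the floxed controls of its own colony, in 4 panels for the 4 knockouts. Points are fitted changes, bars are standard errors, and filled points passed the test at an adjusted p under 0.05: 28 higher and 2 lower in MIGIRKO, 1 in MIGF1RKO and none in MIRKO or QKO.

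In MIGIRKO all 7 secreted and surface members rose against IRIGFRlox, with a median log2 change of 2.57. Adipoq was at 30.3 to 70.1 (median 50.8) CPM in the 6 MIGIRKO libraries, against 8.85, 8.42 and 8.13 in IRIGFRlox. The groups did not overlap. The log2 change of Adipoq was 2.55 ± 0.43 (SE, adjusted p = 5.8e-05), a 5.86-fold rise. Cfd, complement factor D or adipsin, a protease secreted by fat cells, was at 130.4 to 735 (median 322) CPM in MIGIRKO and at 39.1, 41.3 and 38.9 in IRIGFRlox. Its log2 change was 3.11 ± 0.57 (adjusted p = 0.00017), and the highest value came from MIGIRKO 1 and the lowest from the library labelled MIGIRKO 6.

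Retn, the fat cell hormone resistin, was at 3.15 to 20.5 (median 6.45) CPM in MIGIRKO and at 1.83, 1.15 and 1.07 in IRIGFRlox, a log2 change of 2.57 ± 0.62 (adjusted p = 0.0021). Lep, the satiety hormone leptin, was the member of this group whose libraries overlapped. It was at 1.70 to 12.2 (median 6.79) CPM in MIGIRKO against 3.05, 2.30 and 2.78 in IRIGFRlox, a log2 change of 1.43 ± 0.49 (adjusted p = 0.025). MIGIRKO 1, which had the highest Cfd and Retn of its group, had the lowest Lep, below every IRIGFRlox library. The call for Lep was lost with limma-voom (adjusted p = 0.091), without a filter (0.064), with library runs as a block (0.083) and with all 12 floxed libraries as control (log2 change 0.37, adjusted p = 0.41). It was also lost without IRIGFRlox 1, 2 or 3 or MIGIRKO 3 or 4 (0.051 to 0.089).

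Among the surface members, Acvr1c, the receptor ALK7 of the activin family, was at 6.95 to 23.0 (median 11.2) CPM in MIGIRKO and at 1.68, 0.957 and 1.28 in IRIGFRlox. Its change of 3.24 ± 0.45 (adjusted p = 3.3e-06) had the smallest adjusted p of the 34 members in that comparison. Adrb3, the beta-3 adrenergic receptor through which noradrenaline drives lipolysis in rodent fat, was at 3.21 to 25.6 (median 12.2) CPM against 1.22, 0.765 and 2.35, a log2 change of 3.22 ± 0.68 (adjusted p = 0.00062). Aoc3, a surface amine oxidase of fat cells and vessel walls, was at 39.2 to 86.2 (median 70.1) CPM against 23.4, 22.4 and 22.7, a log2 change of 1.59 ± 0.23 (adjusted p = 6.7e-06). For all 3 genes every MIGIRKO library was above every IRIGFRlox library. Each of the 3 overlaps a gene on the other strand, as do Plin4, Cidea, Pparg, Cebpa, Acaca, Me1, Elovl6, Gpam, Agpat2, Lipe and Mgll, and the strand setting of the counting is not given, so reads of a gene and of its antisense partner may not be told apart.

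**Figure D2:**
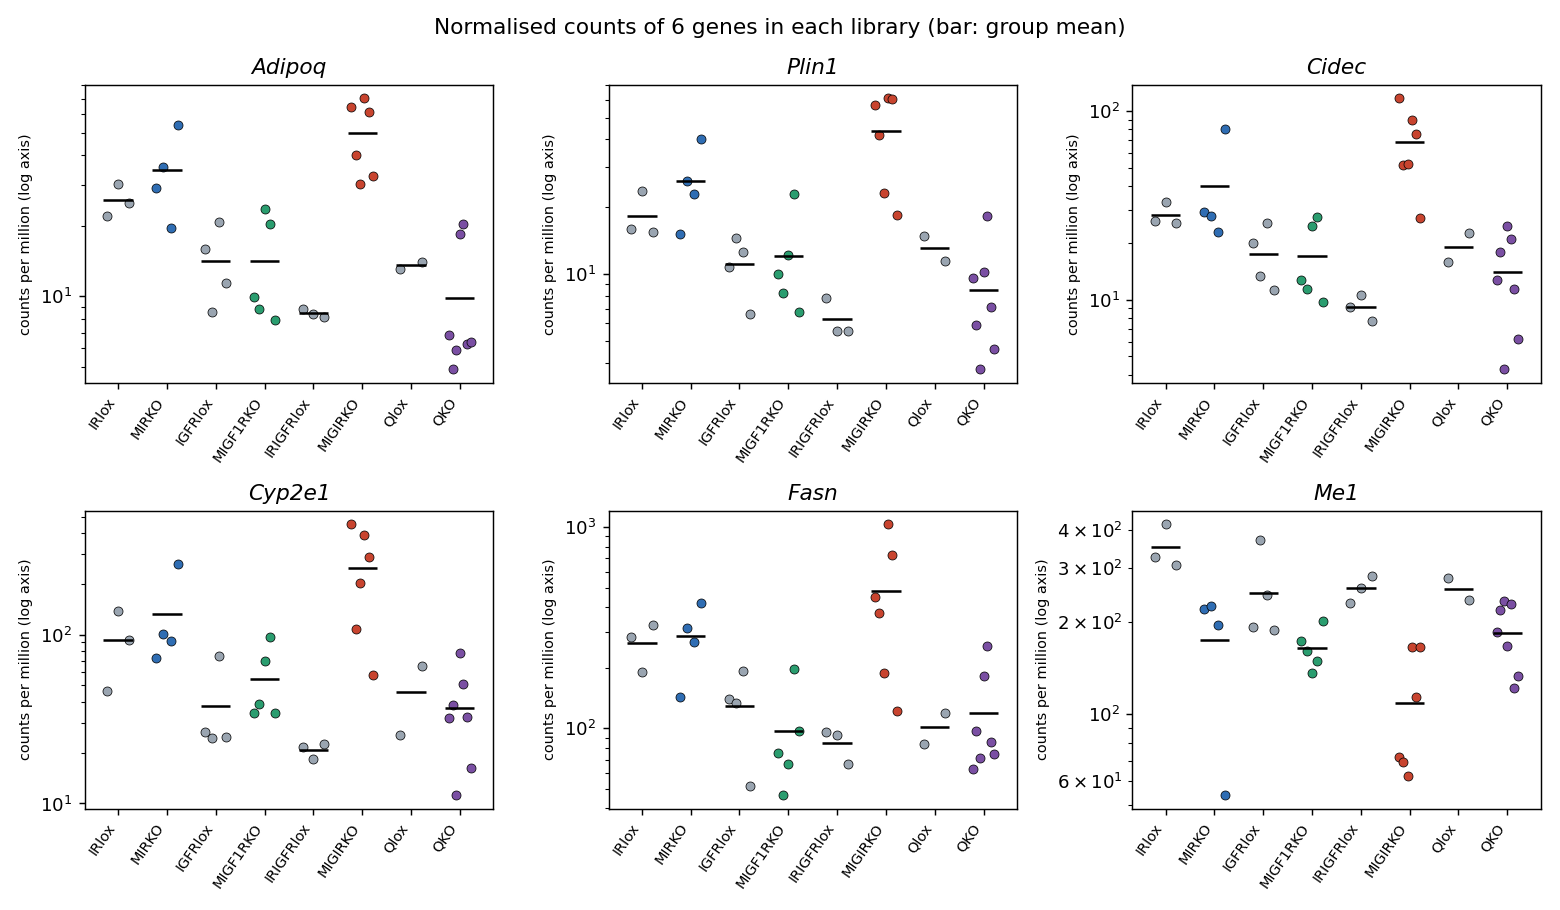
Levels of Adipoq, Plin1, Cidec, Cyp2e1, Fasn and Me1 in each of the 34 libraries, in CPM on a log axis, by group, with a bar at each group's mean. For Adipoq the MIGIRKO libraries run from 30.3 to 70.1 and the IRIGFRlox libraries from 8.13 to 8.85, while Me1 runs the other way.

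Of the 4 lipid droplet members, 3 rose in MIGIRKO and Plin4 was not called. Plin1, perilipin 1, which coats the droplet of fat cells and gates its lipases, was at 18.4 to 61.0 (median 49.4) CPM in MIGIRKO and at 7.78, 5.55 and 5.56 in IRIGFRlox. Its log2 change was 2.78 ± 0.45 (adjusted p = 3.3e-05), with no overlap of the groups. Cidec, which fuses droplets into larger ones, was at 27.1 to 117 (median 64.0) CPM against 9.16, 10.5 and 7.70, a log2 change of 2.91 ± 0.52 (adjusted p = 0.0001). Here too all 6 MIGIRKO libraries were above all 3 controls. Cidea, a relative of Cidec prominent in brown fat, was read at few counts, 2 to 3 in the IRIGFRlox libraries and 5 to 50 in MIGIRKO. MIGIRKO 1 and MIGIRKO 2 reached 6.94 and 7.55 CPM and the other 4 lay between 0.685 and 2.87, for a log2 change of 2.71 ± 0.83 (adjusted p = 0.012) that was lost with limma-voom (adjusted p = 0.1), when only the compared groups were fitted (0.054) and without IRIGFRlox 1 (0.057).

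Plin4, a perilipin of both fat cells and muscle fibers, was at 175 to 494 (median 311) CPM in MIGIRKO and 579, 471 and 209.8 in IRIGFRlox, and it did not pass the test (-0.38, adjusted p = 0.35). Both groups spanned about the same range. The transcription factors of the fat cell program rose together in MIGIRKO. Cebpa (C/EBPalpha) was at 21.0 to 32.2 (median 28.7) CPM in MIGIRKO and 7.78, 5.93 and 5.13 in IRIGFRlox, a log2 change of 2.11 ± 0.45 (adjusted p = 0.00074). Pparg (PPARgamma) was at 7.40 to 14.9 (median 10.3) CPM against 3.51, 2.68 and 4.92, a log2 change of 1.57 ± 0.36 (adjusted p = 0.0011). In neither gene did the groups overlap.

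Of the 8 fatty acid synthesis members, 7 rose in MIGIRKO and Me1 fell. Fasn, fatty acid synthase (chr11:120805846-120824547, GRCm38), was at 122 to 1034 (median 412) CPM in MIGIRKO and at 96.5, 92.2 and 66.3 in IRIGFRlox. The highest value was that of MIGIRKO 4 and the lowest that of the library labelled MIGIRKO 6, and no MIGIRKO library overlapped the controls. The log2 change was 2.50 ± 0.61 (adjusted p = 0.0026). Acly, which makes acetyl-CoA from citrate in the cytosol, rose by 1.24 ± 0.26 (adjusted p = 0.00053) on the log2 scale and Acaca, acetyl-CoA carboxylase, which makes malonyl-CoA, by 1.25 ± 0.35 (adjusted p = 0.0068). Acly was at 62.9 to 185 CPM in MIGIRKO and 46.0 to 49.2 in IRIGFRlox, and Acaca at 29.0 to 103 and 22.4 to 27.3. MIGIRKO 4 was the highest library for Acly, Acaca, Fasn, Thrsp, Scd1 and Scd2.

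Scd1, the stearoyl-CoA desaturase of fat and liver, was at 395 to 1865 (median 849.6) CPM in MIGIRKO and 362, 260.2 and 413 in IRIGFRlox, where the library labelled MIGIRKO 6 lay within the control range. The log2 change was 1.60 ± 0.49 (adjusted p = 0.013). Scd2, the desaturase prominent in brain and in many other tissues, rose by 1.12 ± 0.20 (adjusted p = 9.9e-05) on the log2 scale, with 70.6 to 109.7 (median 88.6) CPM in MIGIRKO against 35.0, 45.9 and 42.1. Its MIGIRKO libraries were close together and all above the controls. Thrsp, the Spot14 protein that accompanies lipogenesis, rose by 1.69 ± 0.47 (adjusted p = 0.0066) on the log2 scale, and its values of 15.3 to 78.7 CPM overlapped those of IRIGFRlox (8.56 to 19.7) through the library labelled MIGIRKO 6. Elovl6, which elongates palmitate, rose by 1.99 ± 0.45 (adjusted p = 0.001) on the log2 scale and did not overlap (8.67 to 24.9 CPM against 2.99 to 4.59). The call of Scd1 was lost without IRIGFRlox 2 (adjusted p = 0.066) and that of Thrsp without IRIGFRlox 3 (0.051).

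Me1, the cytosolic malic enzyme that supplies NADPH (chr9:86581371-86695953, GRCm38), fell in MIGIRKO while Fasn, which uses NADPH, rose. Its level was 62.3 to 166 (median 92.6) CPM in MIGIRKO and 230.3, 258 and 283 in IRIGFRlox, and every MIGIRKO library was below every control. The log2 change was -1.25 ± 0.32 (adjusted p = 0.0031), and with all 12 floxed libraries as control it was -1.36 (adjusted p = 3.3e-05). In MIRKO, Me1 was at 221, 225, 196 and 54.1 CPM against 327, 418 and 308 in IRlox. All 4 MIRKO libraries lay below all 3 IRlox libraries, yet the change of -1.01 ± 0.35 did not pass over all genes (adjusted p = 0.13). Without the library labelled MIRKO 4, the lowest of that group, it was -0.71 (adjusted p = 0.32).

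Of the 6 triglyceride assembly members, 4 rose in MIGIRKO, Lpin1 fell and Gpam was not called. Gpam, the mitochondrial enzyme that takes the first acylation step on glycerol phosphate, was at 169.9 to 259.7 CPM in MIGIRKO and 221 to 305 in IRIGFRlox (-0.27, adjusted p = 0.23). Agpat2, the next acyltransferase, whose loss in humans causes lipodystrophy, was at 9.79 to 39.6 CPM against 5.34 to 8.61, a log2 change of 1.83 ± 0.34 (adjusted p = 0.00012). Its groups did not overlap. Lpin1 was at 333 to 818 (median 631) CPM in MIGIRKO and 1015, 851 and 945 in IRIGFRlox. All MIGIRKO values were below the controls, and the change was -0.63 ± 0.22 (adjusted p = 0.024).

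The fall of Lpin1 was lost when only the compared groups were fitted (adjusted p = 0.074), without MIRKO 4 and MIGIRKO 6 as labelled (0.054), without IRIGFRlox 1 or 3 or MIGIRKO 4, 5 or 6 (0.05 to 0.097), and with library totals only (-0.15, adjusted p = 0.54). That scaling moves the median of all genes in MIGIRKO from 0.04 to 0.53, so changes are best read relative to it. Under it Me1 stayed lower (-0.74, adjusted p = 0.041), Plin4 (0.10) and Gpam (0.23) turned positive, and the 28 members called higher all had positive changes.

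Pck1, the enzyme through which fat cells make glycerol phosphate from lactate and amino acids, had the widest spread among the assembly members. It was at 8.35 to 191 (median 62.0) CPM in MIGIRKO and 11.4, 13.6 and 9.62 in IRIGFRlox. MIGIRKO 1 was the highest, and only the library labelled MIGIRKO 6 was below the controls. The log2 change was 2.68 ± 0.74 (adjusted p = 0.0065). The acyltransferases of the last step, Dgat1 and Dgat2, rose by 0.86 ± 0.22 (adjusted p = 0.0033) on the log2 scale and 0.75 ± 0.29 (adjusted p = 0.047). Dgat2 lost its call under 6 of the planned settings, among them limma-voom (adjusted p = 0.063) and the comparison with all 12 floxed libraries (0.25, adjusted p = 0.36). It also lost it without IRIGFRlox 1 or 3 or MIGIRKO 1, 2, 4 or 5 (0.055 to 0.18).

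Of the 4 lipolysis and fatty acid handling members, 3 rose in MIGIRKO. Fabp4, the fatty acid binding protein of fat cells that is also made by capillary endothelium and macrophages, was at 163 to 375 (median 241) CPM against 100.3, 95.7 and 116 in IRIGFRlox, a log2 change of 1.24 ± 0.29 (adjusted p = 0.0013). Lipe, hormone-sensitive lipase, was at 37.5 to 105 CPM against 25.9 to 42.3 and rose by 1.09 ± 0.28 (adjusted p = 0.0033) on the log2 scale. The Fabp4 values did not overlap, and those of Lipe did, through the library labelled MIGIRKO 6. Mgll, monoacylglycerol lipase, rose by 0.43 ± 0.16 (adjusted p = 0.037) on the log2 scale, a call lost without a filter (adjusted p = 0.1), when only the compared groups were fitted (0.098) and without IRIGFRlox 1 or 3 or MIGIRKO 4 or 5 (0.068 to 0.2). Aqp7, the glycerol channel of fat cells, which muscle also has, was not called (0.22, adjusted p = 0.42).

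Cyp2e1, a cytochrome P450 of liver and fat (chr7:140763739-140774987, GRCm38), had the largest log2 change of the 34 members in MIGIRKO, 3.58 ± 0.70 (adjusted p = 0.00035). It was at 57.4 to 450.1 (median 245) CPM in MIGIRKO and 21.5, 18.4 and 22.5 in IRIGFRlox, with no overlap. Car3 rose by 0.78 ± 0.27 (adjusted p = 0.024) on the log2 scale, with 2075 to 5047 (median 3673) CPM in MIGIRKO against 1744, 2302 and 2391, and the library labelled MIGIRKO 6 lay within the control range. The call for Car3 was lost without a filter (adjusted p = 0.065) and without IRIGFRlox 1 (0.13), IRIGFRlox 2 (0.051) or MIGIRKO 4 (0.056).

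Ucp1, the uncoupling protein of brown fat, was not called in any of the 4 comparisons. In MIGIRKO it was at 10.3, 19.6 and 13.0 CPM in libraries 1, 2 and 5, at 0.774 in MIGIRKO 4 and at 0 in the other 2, against 1.22, 2.49 and 0 in IRIGFRlox. MIGIRKO 1 and MIGIRKO 2 were also the libraries with the highest Cidea, while Adipoq was highest in MIGIRKO 4. The summed brown fat markers other than these members were at 75.7 to 134 CPM in MIGIRKO and 82.9 to 111 in IRIGFRlox. Of the 5 tested, 2 were higher in MIGIRKO, Dio2 (log2 change 1.74), which activates thyroid hormone, and the transcription factor Ebf2 (0.80). Of all tested genes, 17% were called higher there. Lhx8 and Elovl3 had too few counts to be tested.

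The rise in MIGIRKO was smaller, but mostly kept, against the wider set of controls. With all 12 floxed libraries as control, 26 members were called higher, against 24.4% of all tested genes, and 3 lower, against 21.2%, and the log2 change was 1.68 for Adipoq, 1.87 for Plin1, 1.92 for Cidec, 2.36 for Cyp2e1 and 1.70 for Fasn. Gpam joined the members called lower there (-0.37, adjusted p = 0.016). Without the library labelled MIGIRKO 6, 29 members were called, against 32.8% of all tested genes in either direction, with 2.65 for Adipoq, 2.94 for Plin1 and 2.71 for Fasn. The libraries fall into 6 runs of consecutive library numbers, and 3 runs hold 1 library of each of these groups. Within them Adipoq was at 64.1 CPM in MIGIRKO and 8.85 in IRIGFRlox, then at 40.2 and 8.42, and at 32.6 and 8.13. Of the 30 members called, 22 kept their call under all planned settings and with each library left out in turn, among them Adipoq, Retn, Cfd, Acvr1c, Plin1, Cidec, Pparg, Cebpa, Fasn, Me1 and Cyp2e1.

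Markers of other cells moved in the same libraries, in a comparison where 17% of all tested genes were called higher and 16.7% lower. The summed level of 12 immune cell markers was 169 to 242 CPM in IRIGFRlox and 498 to 1418 in MIGIRKO, where 11 of the 12 were called higher, among them Mrc1 (log2 change 1.97) of macrophages and the complement genes C1qb (2.29) and C1qa (1.82). Of 9 Schwann cell markers 7 rose, with sums of 186 to 290.4 CPM in IRIGFRlox and 381 to 729 in MIGIRKO. Mbp, a gene of the myelin sheath, is an example (log2 change 1.41). Of 6 fibroblast markers 3 rose (sums of 2727 to 6062 and 4759 to 8869.9 CPM), and of 6 adipocyte progenitor markers 3 rose (199 to 290.4 and 281 to 434 CPM), while 0 of 7 endothelial markers were called (364 to 465 and 312 to 409.6 CPM). Of 10 fiber markers 5 fell, among them Mb (log2 change -2.35), myoglobin, and Myh4 (-1.47), fast myosin, and their sum was 170282 to 189335 CPM in IRIGFRlox and 64389 to 103012 in MIGIRKO. The part of these shifts in the rise of the members was not tested.

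Further genes of the same pathways, listed by function with earlier results of these data known, followed the members in part. Their counts stand beside 17% of all tested genes called higher in MIGIRKO and 16.7% called lower. Of 22 further adipocyte genes, 11 rose and 1 fell in MIGIRKO, with a median log2 change of 1.30. They include the amino acid transporter Slc7a10 (log2 change 2.86, adjusted p = 2.7e-05), the natriuretic peptide clearance receptor Npr3 (2.68, adjusted p = 0.00013), the melanocortin receptor partner Mrap (3.14, adjusted p = 0.00017) and the lactate receptor Hcar1 (2.76, adjusted p = 0.00019). The gene that fell was Gpd1 (log2 change -0.83), glycerol-phosphate dehydrogenase, which muscle fibers also hold at high level. Of 14 further fatty acid synthesis genes, 8 rose and 2 fell. Those with the smallest adjusted p were Tecr (log2 change -1.31), an enzyme of fatty acid elongation, Elovl5 (0.87) and the NADPH-producing dehydrogenases Pgd (1.21) and G6pdx (1.56), which rose where Me1 fell.

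Among 11 lipogenic regulators 2 rose and 1 fell in MIGIRKO, and neither Srebf1 nor Mlxipl, the factors through which insulin and glucose act on lipogenic genes, was called. Rises and falls in these lists stand beside 17% and 16.7% of all tested genes, and counts near those shares say little about a list. The 3 called were Rxra (log2 change -0.98), the partner of PPARgamma, the SREBP retention protein Insig1 (0.79) and Mlx (0.48). Of 12 further triglyceride assembly genes, 5 rose and 3 fell. They include Gpat3 (log2 change 1.72), a glycerol-phosphate acyltransferase of fat cells, and Agpat1 (-0.78). Of 11 further lipolysis and droplet genes, Plin3 (log2 change 0.76) and the lipase Pnpla2 (0.52, adjusted p = 0.0496) rose, and Plin5 (-1.07), the perilipin of oxidative tissues, fell.

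**Figure D3:**
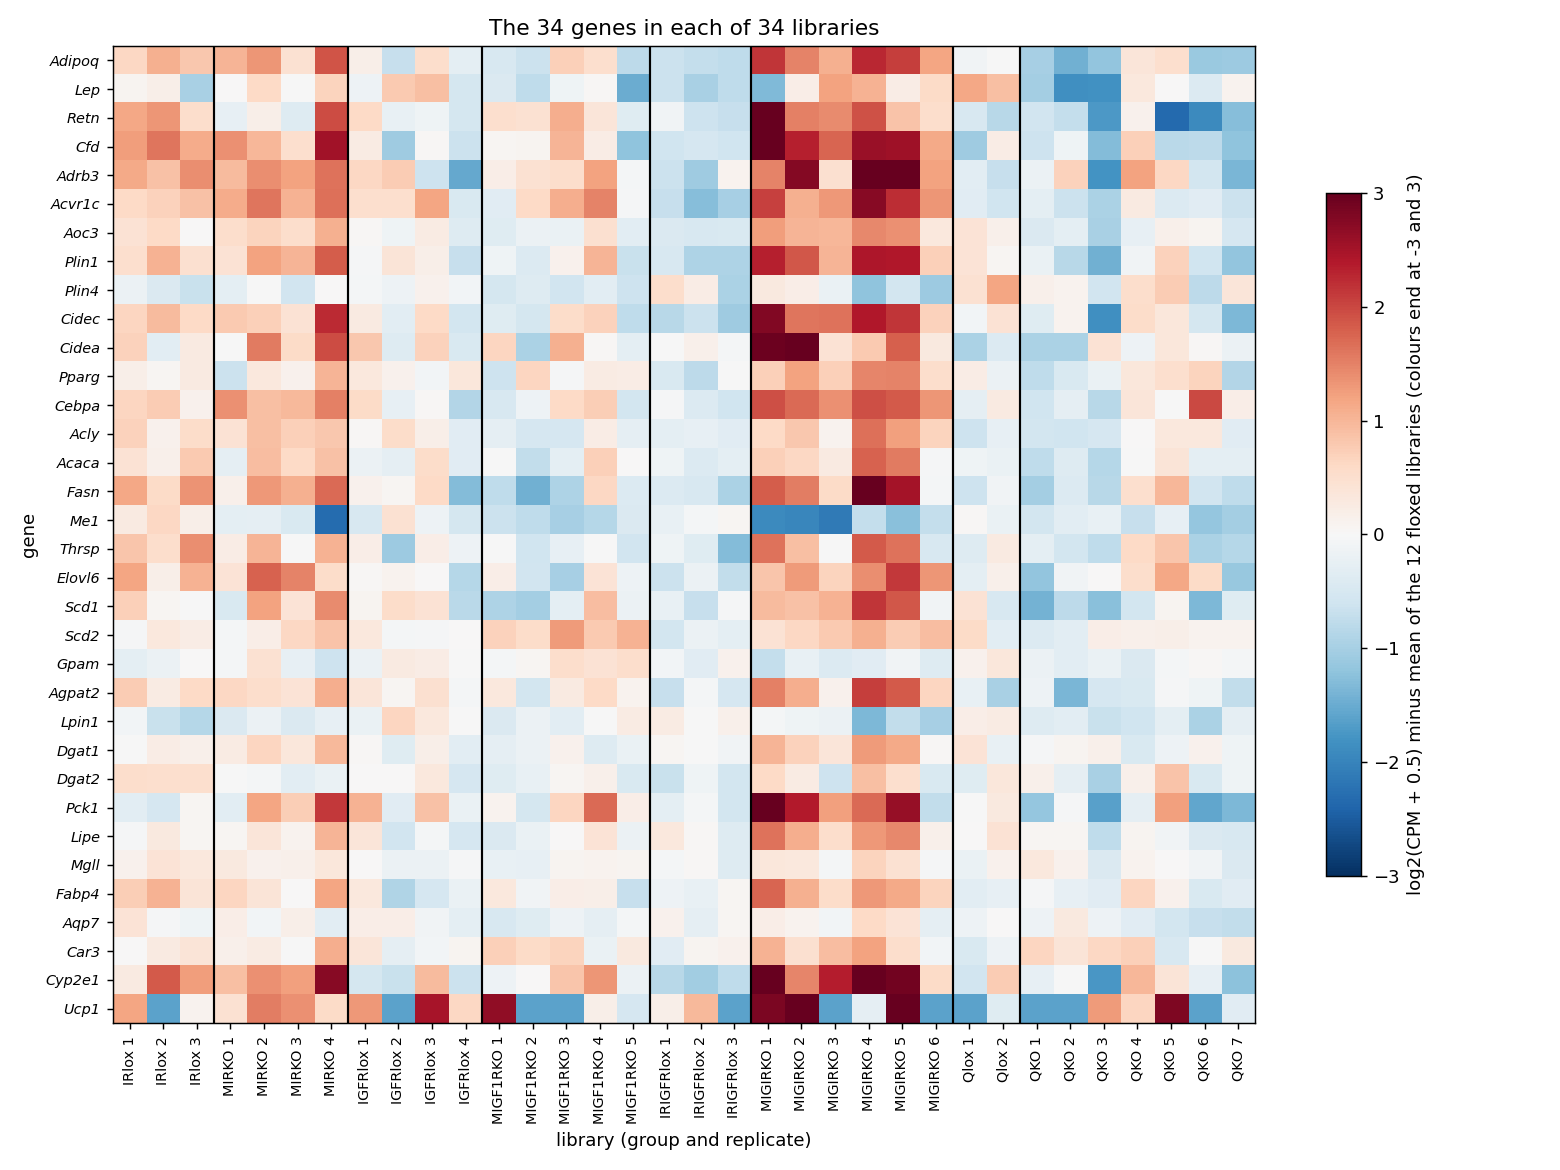
Heat map of the 34 members (lines) in the 34 libraries (columns, by group), coloured by log2(CPM + 0.5) minus the mean of the 12 floxed libraries, with colours ending at -3 and 3. MIGIRKO libraries are high for most members, with Me1 low, and the library labelled MIRKO 4 stands above the other 3 MIRKO libraries for genes such as Cidec and Cyp2e1.

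In QKO, where the FoxO factors were deleted along with both receptors, none of the members was called against Qlox. Of the 34, 23 had a negative change, and the share of all tested genes with a negative change is not given here. Adipoq was at 4.89 to 20.3 (median 6.38) CPM in QKO and 13.1 and 14.0 in Qlox, a log2 change of -0.61 ± 0.48 (adjusted p = 0.65). Of the 7 QKO libraries, QKO 4 and QKO 5 were above both Qlox libraries and the other 5 below. Plin1 was at 3.74 to 18.2 (median 7.11) CPM against 14.8 and 11.5 (-0.74 ± 0.49, adjusted p = 0.57). Its QKO values ran on both sides of the controls. Fasn was at 63.1 to 257 (median 86.0) CPM against 83.7 and 119.7 (0.19 ± 0.63, adjusted p = 0.94), again with overlap. Without QKO 5 and QKO 6 the change of Adipoq was -0.74 (adjusted p = 0.6). In the 2 library runs that hold both groups, Adipoq was at 20.3 CPM in QKO 5 and 13.1 in Qlox 1, and at 6.28 in QKO 6 and 14.0 in Qlox 2, so the order differed between runs. The 6 members at an unadjusted p under 0.05 were Lep (-1.63 ± 0.51), Aoc3 (-0.59 ± 0.25), Plin4 (-0.70 ± 0.34), Gpam (-0.40 ± 0.19), Lpin1 (-0.70 ± 0.24) and Car3 (0.67 ± 0.31), with adjusted p between 0.17 and 0.42. Qlox has only 2 libraries, which limits the precision of every change in QKO.

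Whether members changed differently in QKO and in MIGIRKO was tested in the same fit, each change taken against its own controls. Here 11 members were called lower in QKO and 0 higher, against 2.15% of all tested genes called lower and 3.61% higher. The median difference was -1.65 over the members and 0.01 over all tested genes, and 33 of 34 members had a negative difference. For Adipoq it was -3.16 ± 0.63 (adjusted p = 0.0041), for Plin1 -3.52 ± 0.65 (adjusted p = 0.002) and for Cidec -3.45 ± 0.72 (adjusted p = 0.0065). Cidec was at 4.28 to 24.5 (median 12.8) CPM in QKO and 15.7 and 22.5 in Qlox, so no QKO library reached the lowest MIGIRKO library. The other 8 were Cfd (-3.29 ± 0.76), Lep (-3.07 ± 0.71), Acvr1c (-3.15 ± 0.75), Aoc3 (-2.18 ± 0.33), Scd1 (-2.35 ± 0.68), Scd2 (-1.31 ± 0.30), Lipe (-1.55 ± 0.41) and Cyp2e1 (-3.93 ± 0.91), with adjusted p between 0.00041 and 0.039.

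By role, the difference was called for 5 of the 7 secreted and surface members, 2 of the 4 droplet members, 2 of the 8 synthesis members, 0 of the 6 assembly members and 0 of the 2 transcription factors. Fasn had a difference of -2.31 ± 0.82 (adjusted p = 0.091), Pparg of -1.65 ± 0.55 (adjusted p = 0.07) and Me1, the only member with a positive difference, of 0.77 ± 0.50 (adjusted p = 0.4). Cebpa had a single high library in QKO, QKO 6, at 32.9 CPM where the other 6 ran from 4.28 to 10.5. Its difference was -1.65 ± 0.67 (adjusted p = 0.15) with all libraries and -2.34, adjusted p = 0.0033 without QKO 5 and QKO 6. The split by role depended on the libraries used. Without the library labelled MIGIRKO 6, Pck1 (-3.65, adjusted p = 0.016), Dgat1 (-1.13, 0.019), Agpat2 (-1.78, 0.029) and Pparg (-1.74, 0.042) were called lower. So were the synthesis members Thrsp (-2.07, adjusted p = 0.034), Fasn (-2.51, 0.038) and Acaca (-1.53, 0.048). Gpam, Lpin1, Dgat2 and Cebpa were not called there. The count of called members was 18 without QKO 5 and QKO 6, 19 without the libraries labelled MIRKO 4 and MIGIRKO 6 and 18 without the library labelled MIGIRKO 6 alone, beside 9.95%, 9.97% and 8.87% of all tested genes in either direction. It was 6 without Qlox 1, 3 without Qlox 2 and 7 with library runs as a block, beside 0.924%, 0.791% and 3.95%. Leaving out Qlox 2 ended the calls of Adipoq (adjusted p = 0.051), Cidec (0.083), Cfd (0.19) and Cyp2e1 (0.18), leaving out Qlox 1 that of Scd2 (0.21), and leaving out either those of Lep, Acvr1c, Lipe and Scd1 (0.059 to 0.23). The call of Lipe was also lost without IRIGFRlox 3 (0.07), and that of Scd1 without IRIGFRlox 1, 2 or 3, QKO 1, 2 or 3 or MIGIRKO 4 or 5 (0.053 to 0.096). Aoc3 and Plin1 kept their call in every planned setting and with each library left out in turn.

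**Figure D4:**
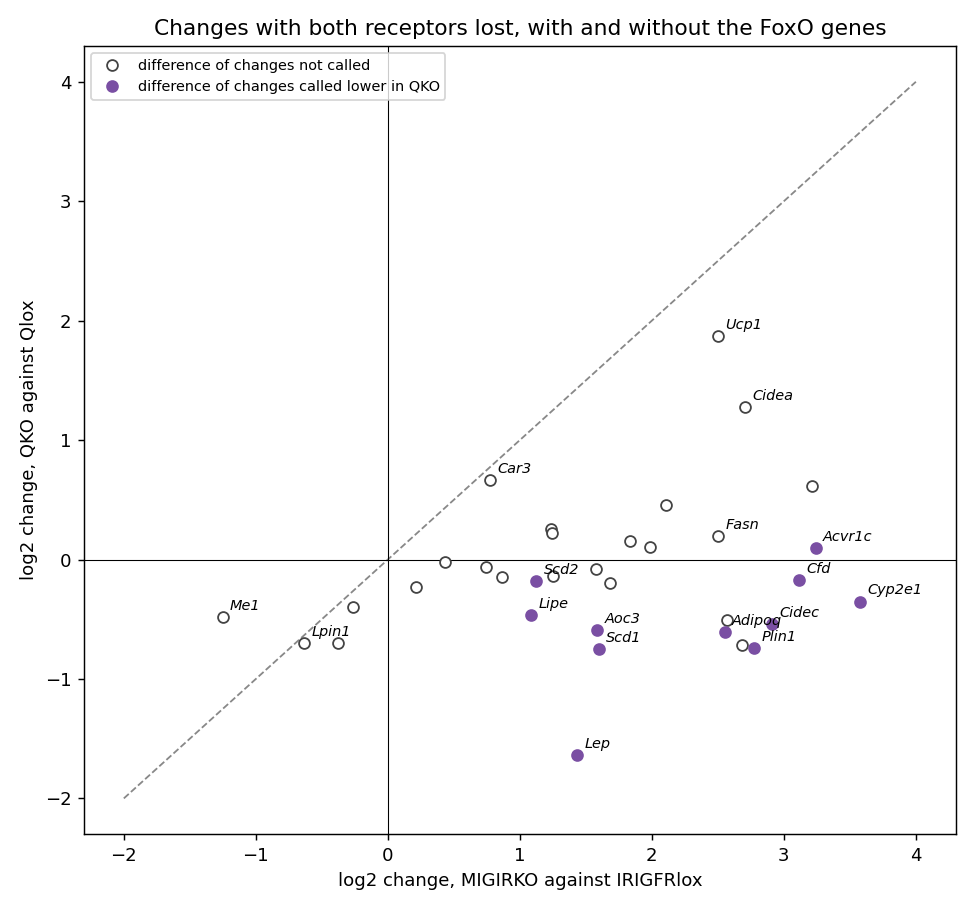
Log2 change of each member in QKO against Qlox (vertical axis) plotted against its log2 change in MIGIRKO against IRIGFRlox (horizontal axis), with the line of equal change. Filled points are the 11 members whose QKO change was lower by the test of the difference, and all members except Me1 lie below the line.

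Other lists moved in the same test, in which 2.15% of all tested genes were called lower and 3.61% higher. Of 22 further adipocyte genes, 10 were lower in QKO relative to MIGIRKO, among them Slc7a10 (difference -4.00), Lgals12 (-3.85), a lectin of fat droplets, Mrap (-3.68) and the retinol carrier Rbp4 (-2.57). Of 9 Schwann cell markers 7 were lower, and 5 of 10 fiber markers were higher, among them Mb (2.45). Summed Schwann cell markers were at 177 to 555 CPM in QKO and 446 to 712 in Qlox, and summed fiber markers at 109380.2 to 198207 and 161353 to 168594. Summed immune markers were at 262 to 2884 CPM in QKO and 224 to 293 in Qlox, and summed adipocyte-defining members at 43.3 to 166 and 90.6 to 132. QKO 6 alone set the highest immune sum and the lowest fiber sum. The other 6 QKO libraries reached at most 692 CPM of immune markers and held at least 141806 CPM of fiber markers. Their part in the difference was not tested.

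In MIRKO the fat cell members lay at levels close to those of the IRlox controls, whose summed adipocyte-defining markers were the highest of the floxed groups. Adipoq was at 28.9, 35.9, 19.6 and 53.8 CPM in MIRKO 1 to 4, against 22.1, 30.3 and 25.1 in IRlox (0.42 ± 0.41, adjusted p = 0.62). The groups overlapped, and the top value belonged to the library labelled MIRKO 4. Cidec was at 29.1, 27.8, 22.8 and 80.2 CPM against 26.1, 32.8 and 25.4 (0.52 ± 0.48, adjusted p = 0.61), and Cyp2e1 at 72.4, 101, 91.3 and 261 against 46.6, 139 and 93.5 (0.50 ± 0.63, adjusted p = 0.71). In both genes, and in Retn and Cfd, the library labelled MIRKO 4 was the highest of the 7 libraries. Without it the median change of the members was 0.09 in place of 0.23, with 0.12 for Adipoq, -0.08 for Cidec, -0.34 for Cfd and -0.07 for Cyp2e1. For Cidec, Cfd and Cyp2e1 the sign turned, from 0.52, 0.21 and 0.50 with all 4 libraries, and Retn went from -0.28 to -1.35. None of these changes was called with or without that library. Summed immune markers were at 496 to 1216 CPM in MIRKO and 305 to 387 in IRlox, and summed fiber markers at 84788 to 134278 and 149317 to 170449, and their part in these values was not tested. The 2 members at an unadjusted p under 0.05 were Me1 and Dgat2, which was at 43.3, 41.6, 34.7 and 37.5 CPM against 62.7, 61.7 and 62.1 (-0.66 ± 0.30, adjusted p = 0.25).

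The choice of controls decided whether MIRKO members were called. With all 12 floxed libraries as control, 12 were called higher, against 10.5% of all tested genes higher and 10.3% lower, among them Adipoq (log2 change 1.16, adjusted p = 0.015), Plin1 (1.14), Cidec (1.14), Cfd (1.28), Acvr1c (1.29), Cebpa (1.19) and Cyp2e1 (1.44). Colony and genotype cannot be told apart in that comparison. The MIGIRKO change minus the MIRKO change was called for 0 members and 0% of genes in either direction, with a member median of 1.34. At an unadjusted p under 0.05 there were 22 members, and the share of all tested genes at that threshold is not given here. DESeq2 made 1 call, Cfd (2.92, adjusted p = 0.039). DESeq2 called 0.0586% of all tested genes in that difference. When both MIRKO 4 and MIGIRKO 6, as labelled, were left out, 15 members had a larger change in MIGIRKO, against 1.28% of all tested genes called in that direction and 2.12% in the other. These were led by Retn (4.09), Cyp2e1 (3.86), Cfd (3.63), Adrb3 (3.35) and Cidec (3.16) in size. Both omitted libraries had stood out in these same data. For Cidec, Cfd and Cyp2e1 they were the highest of MIRKO and the lowest of MIGIRKO, so leaving them out widens the difference. Without the library labelled MIRKO 4 alone, 10 members had a larger change in MIGIRKO, against 0.324% and 0.745% of all tested genes. Without the library labelled MIGIRKO 6 alone, no member was called, and Aoc3 had the smallest adjusted p (1.35, adjusted p = 0.06).

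In MIGF1RKO, Scd2 was the member that rose. It was at 83.7, 75.6, 126, 89.1 and 108 CPM against 64.7, 49.9, 50.7 and 52.2 in IGFRlox, with all 5 knockout libraries above all 4 controls, and its log2 change was 0.83 ± 0.19 (adjusted p = 0.029). The call was lost without MIGF1RKO 3 (adjusted p = 0.12), MIGF1RKO 5 (0.062), IGFRlox 2 (0.13), IGFRlox 3 (0.082) or IGFRlox 4 (0.089), with a log2 change of 0.71 to 0.81 there. The other 33 members did not pass the test. Adipoq was at 9.96, 8.87, 23.6, 20.3 and 7.91 CPM against 15.9, 8.56, 20.7 and 11.4 (-0.02 ± 0.39, adjusted p = 1), and Fasn at 75.8, 46.7, 66.7, 197 and 97.0 against 140.0, 133, 193 and 51.5 (-0.42 ± 0.51, adjusted p = 0.87). The MIGIRKO change exceeded the MIGF1RKO change for 14 members, against 3.67% of all tested genes called higher and 4.91% lower, with differences from 1.60 for Pparg to 3.07 for Acvr1c. With library runs as a block the count was 9, against 8.11% of all tested genes in either direction. The calls of Pparg (adjusted p = 0.077), Lep (0.065), Cebpa (0.092), Elovl6 (0.054) and Cyp2e1 (0.075) were lost with the block. Scd2 was not among the 14 members (0.30, adjusted p = 0.5).

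Members also varied together among libraries of a genotype. For each of the other 33 members, log2 CPM was correlated with that of Adipoq over 34 libraries after each group's mean was subtracted. The correlation was highest for Cidec (r = 0.78 with p = 9e-05, rho = 0.77 with p = 7e-05, by permutation), Thrsp (r = 0.77 with p = 1e-05, rho = 0.76 with p = 1e-05), Plin1 (r = 0.74 with p = 9e-05, rho = 0.71 with p = 0.0001), Cyp2e1 (r = 0.73 with p = 3e-05, rho = 0.70 with p = 5e-05), Fabp4 (r = 0.71 with p = 0.00011, rho = 0.72 with p = 0.0001) and Dgat2 (r = 0.70 with p = 2e-05, rho = 0.70 with p = 4e-05). The value of 1e-05 is the smallest that 100000 permutations can give. Without QKO 4 and QKO 5, the libraries farthest from the median of Adipoq, these 6 had r between 0.64 and 0.74. Without MIRKO 4 and MIGIRKO 6, as labelled, r was 0.76 for Cidec, 0.77 for Thrsp, 0.71 for Plin1, 0.70 for Cyp2e1, 0.67 for Fabp4 and 0.72 for Dgat2.

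Fasn (r = 0.66 with p = 0.00044, rho = 0.64 with p = 0.00066), Lipe (r = 0.63 with p = 0.00038, rho = 0.67 with p = 0.00023) and Acaca (r = 0.61 with p = 0.0015, rho = 0.50 with p = 0.011) followed Adipoq less closely, with r of 0.63, 0.58 and 0.57 without MIRKO 4 and MIGIRKO 6 as labelled. Lowest in order were Me1 (r = -0.18 with p = 0.37, rho = -0.19 with p = 0.36), Lpin1 (r = -0.13 with p = 0.51, rho = -0.12 with p = 0.56), Aqp7 (r = -0.06 with p = 0.78, rho = -0.05 with p = 0.81) and Gpam (r = -0.01 with p = 0.96, rho = 0.06 with p = 0.78), whose r without these libraries was 0.08, -0.21, -0.07 and 0.13. Without QKO 4 and QKO 5, r moved most for Dgat1, from 0.32 to 0.56, and for Elovl6, from 0.25 to 0.03. The points share library and depth with Adipoq, and these p-values are not adjusted for the 33 correlations.

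**Figure D5:**
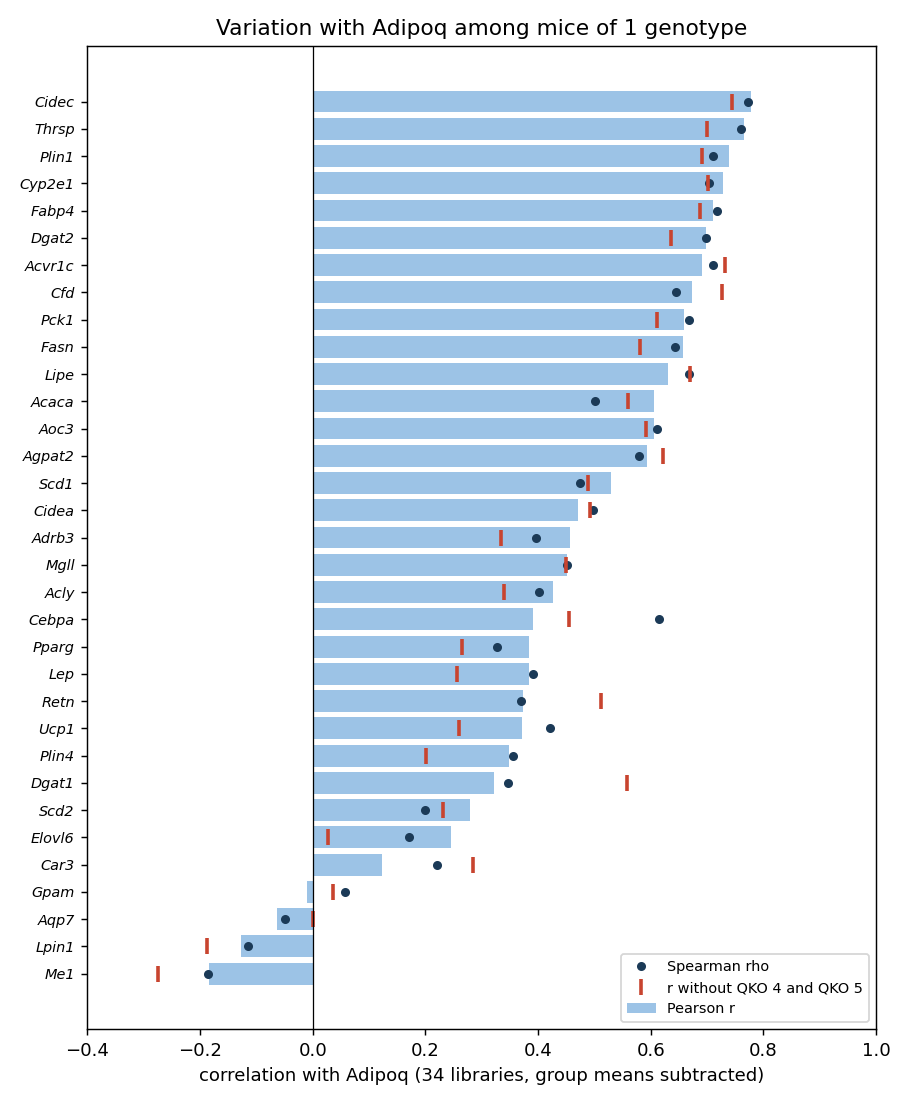
Correlation of each of 33 members with Adipoq over 34 libraries after subtraction of group means: bars are Pearson's r, dots Spearman's rho, and ticks r without QKO 4 and QKO 5. Cidec, Thrsp and Plin1 stand at the top and Me1 and Lpin1 below 0.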

How the data were processed

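Total RNA of mixed, powdered quadriceps and gastrocnemius muscle had been made into directional libraries, per the labels' protocols. The authors aligned the reads with STAR and counted them with featureCounts on GRCm38.p4, per the submitters' processing notes; versions, annotation release and strand setting are not given in the sources used here. The deposited values are raw counts per gene, whole numbers with no normalization, and total counts per library (1499025 to 7581198) set the counting precision of weak genes. Symbols, positions and exon lengths came from GENCODE M21 (GRCm38), which gave a symbol to 45229 of the 46071 genes. No column was left unused.

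The members and the gene lists were chosen with earlier results of these data known. All 34 members are named whatever their values, and of each further list up to 4 called genes with the smallest adjusted p in a comparison. The targeted genes are Insr, Igf1r, Foxo1, Foxo3 and Foxo4. Groups came from the labels alone. Genes were filtered with edgeR's filterByExpr over the 8 groups, which left 13646, scaled by TMM and fitted in R 4.3.3 with edgeR 4.0.16 (quasi-likelihood, robust, 1 mean per group, all 34 libraries). P-values were adjusted by the Benjamini-Hochberg method over the tested genes, and a gene was called at an adjusted p under 0.05. The standard error (SE) is the size of the log2 change over the square root of F.

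Alternatives were the DESeq2 1.42.0 test, DESeq2 size factors, library totals only, limma-voom (limma 3.58.1), no filter, CPM above 1 in at least 3 libraries, library runs as a block, the compared groups only, all 12 floxed libraries as control, leaving out MIRKO 4 with MIGIRKO 6, or QKO 5 with QKO 6, and leaving out each library in turn. The fit was tested on simulated data. Correlations used log2 CPM with a prior count of 2 and 100000 two-sided permutations of libraries within groups (scipy 1.17.1, numpy 2.4.6). Counts per kilobase are CPM over the exon length. Promoter windows are RefSeq's (GRCm38.p6).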

Additional observations from a re-analysis of the deposited data

Results flagged for a closer look

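Among 170 groups of 4 to 7 libraries in which a member was examined, 17 held a library far from the others of its group. For independent, normally distributed values, chance gives about 1 such library in 20 groups. The members vary together over the same libraries, so that rate may not hold here. The library labelled MIRKO 4 did so in 4 genes: it was high for Retn (9.34 CPM), Cidec (80.2 CPM) and Cyp2e1 (261 CPM) and low for Me1 (54.1 CPM), and without it the MIRKO changes of Cidec, Cfd and Cyp2e1 turned sign. MIGF1RKO 4 was high for Aoc3 (44.4 CPM), Acly (68.2 CPM) and Scd1 (809 CPM). Of the QKO libraries, QKO 4 was high for Cfd (97.4 CPM), QKO 5 for Pck1 (34.1 CPM) and Ucp1 (10.2 CPM), and QKO 6 for Cebpa (32.9 CPM). MIGIRKO 1 was high for Retn (20.5 CPM), and MIGF1RKO 1 for Ucp1 (9.19 CPM). In IGFRlox, library 1 was high for Scd2 (64.7 CPM), library 3 for Acaca (44.5 CPM) and Cyp2e1 (74.6 CPM), and library 4 was low for Elovl6 (2.70 CPM).

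The change in QKO differed from that in MIGIRKO by the edgeR test of the difference itself for 11 members. In log2 units the difference was -3.16 for Adipoq, -3.07 for Lep, -3.29 for Cfd, -3.15 for Acvr1c, -2.18 for Aoc3, -3.52 for Plin1, -3.45 for Cidec, -2.35 for Scd1, -1.31 for Scd2, -1.55 for Lipe and -3.93 for Cyp2e1. The change in MIGIRKO was higher than that in MIGF1RKO for 14 members, by 2.57 for Adipoq, 2.37 for Lep, 2.64 for Cfd, 3.07 for Acvr1c, 1.62 for Aoc3, 2.66 for Plin1, 2.95 for Cidec, 1.60 for Pparg, 1.91 for Cebpa, 1.62 for Acly, 2.92 for Fasn, 1.98 for Elovl6, 1.87 for Agpat2 and 3.05 for Cyp2e1. The 4 colonies differ in their floxed controls, so line and genotype cannot be told apart in these differences.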

How the results depend on the processing

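The count of members called in MIGIRKO was 24 to 30 under all planned settings and with each library left out. Of all tested genes, 33.7% were called in the main fit, 13.0% without a filter and 51.3% with library totals only. All 12 floxed libraries as control gave 12 members in MIRKO and 1 in QKO, where the other settings gave 0. With those controls 20.7% of all tested genes were called in MIRKO and 7.94% in QKO. For the QKO change minus the MIGIRKO change (11 members), library totals only gave 23, library runs as a block 7, omitting both MIRKO 4 and MIGIRKO 6 (as labelled) gave 19, leaving out QKO 5 and QKO 6 gave 18, and leaving out each library in turn 3 to 18. Of all tested genes, 5.76% were called in the main fit, 10.3% with library totals only and 3.95% with the block. The share was 9.97% and 9.95% with those pairs of libraries left out. The block ended the calls of Lep, Acvr1c, Scd1, Lipe and Cyp2e1. For the MIGIRKO change minus the MIRKO change (0 members), DESeq2 gave 1, omitting both MIRKO 4 and MIGIRKO 6 (as labelled) gave 15, and single libraries 0 to 10, the highest without MIRKO 4. Of all tested genes, 0% were called in the main fit, 0.0586% by DESeq2 and 3.39% with both libraries omitted. For the MIGIRKO change minus the MIGF1RKO change (14 members), library totals only gave 25, no filter 9, the block 9, and single libraries 8 to 20, with 8 without IRIGFRlox 1 or IRIGFRlox 3 and 9 without IRIGFRlox 2. The calls of Lep, Cfd, Pparg, Cebpa, Fasn, Elovl6 and Cyp2e1 there were each lost without 1 to 13 of the single libraries. Of all tested genes, 8.58% were called in the main fit, 15.9% with library totals only, 2.28% without a filter and 8.11% with the block. Among the floxed groups (0 members) DESeq2 gave 1, the block 1 and the compared groups only 5, beside 1.19%, 0.235% and 0.968% of all tested genes. In MIGF1RKO (1 member) single libraries gave 0 to 1. The cause of these shifts was not tested. Library totals only moved the median of all genes from 0.03 to 0.30 in MIRKO, from 0.04 to 0.53 in MIGIRKO and from 0.01 to -0.41 for the QKO change minus the MIGIRKO change. No member that was called changed direction under a setting. No paired analysis was possible because nothing in the labels ties a knockout sample to a given littermate. Qlox holds 2 libraries, and Cidea, Ucp1, Retn and Adrb3 rest on few counts in several libraries.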
